A study of Bos indicus and Bos taurus with 17 samples.

Results

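Receptors that guide neutrophils to a site of inflammation and keep them alive there were followed in RNA from cow's milk. The members were 10 genes chosen by name: the chemokine receptors CXCR1, CXCR2 and CXCR4, the growth factor receptors CSF3R, CSF2RA and CSF2RB, and the chemoattractant or danger receptors C5AR1, PTAFR, GPR84 and FPR1. Of these, 7 were found among the 21631 distinct gene names of the expression table, and CXCR1, CXCR2 and FPR1 were not found. The samples were epithelial cells captured from the milk of Kashmiri and Jersey cattle with antibody-coated beads on day 15 (D15, March), day 90 (D90, July) and day 250 (D250, December) in milk. The labels list 17 samples, 3 for each breed and day except 2 for Jersey D90, from cows in lactation 2 or 3. The study's methods describe the same cows milked on each day, whereas the lactation numbers in the labels differ between the days of a breed. Every sample of a day carries the same month, so stage and season cannot be told apart. The question was how these receptors differ between lactation stages and between the breeds.

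Expression is given as FPKM, the fragments per kilobase of transcript scaled to all mapped fragments, which allows levels of different genes to be set side by side. The authors' table holds 6 values per gene, 1 for every combination of breed and day. There is therefore no spread between cows, and no test was possible from these values. The study itself tested for differences with Cuffdiff. Among its top breed differences it lists GPR84 on D90 and D250 and the chemokine CXCL12 on D15 and D90. The reads behind each value are unknown, so no interval is given. A difference was counted when the log2 ratio, with 1 FPKM added to both values, was at least 2 in either direction (4-fold) and at least 1 group reached 1 FPKM. All 7 receptors found entered all 9 comparisons. Log2 ratios below are on this scale, which understates the ratios of low genes, and folds are plain ratios of FPKM.

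Most of these receptors span the membrane 7 times and signal through G proteins of the Gi class, which drive directed migration. CXCR1 and CXCR2 bind interleukin 8 and related chemokines, CXCR4 binds CXCL12, and C5AR1 binds the complement fragment C5a. CSF3R, the G-CSF receptor, and the CSF2RA and CSF2RB chains of the GM-CSF receptor signal through JAK kinases and STAT factors, and support the production and survival of neutrophils. In the udder, neutrophils move from blood into milk and are the main defence against bacteria in mastitis. None of the genes is restricted to neutrophils: macrophages and monocytes carry most of them, and T and B cells carry CXCR4.

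The labelled cell type was checked against marker genes. KRT18, an epithelial keratin, was at 51.3, 9.13 and 11.5 FPKM in Kashmiri cattle on D15, D90 and D250, and at 33.7, 1.59 and 4.51 FPKM in Jersey cattle. The leukocyte gene LSP1 was above KRT18 in 6 of 6 groups and the leukocyte integrin ITGB2 in 5 of 6, so RNA of leukocytes was present beside that of epithelium. These counts do not show which RNA was the larger part, since epithelial markers lay on both sides of LSP1. The keratin KRT19 was at 3195, 295 and 1319 FPKM in Kashmiri and 1687, 38.2 and 835 FPKM in Jersey cattle. LSP1 was at 139, 254 and 68.6 FPKM in Kashmiri and 334, 170 and 149 FPKM in Jersey cattle, above KRT19 only in Jersey D90. CSN2, which encodes beta casein, was listed at 0 in every group but Jersey D90, with 1068 FPKM, and HBA was not found. In Cuffdiff tables an exact 0 can be a failed estimate, and these zeros were not read as absence of casein. The study itself reports high CSN2 expression in every group, which the deposited zeros do not match. By qPCR on D90 it also found KRT18 and CSN2 higher, and its markers of other cell types lower, in captured cells than in all milk somatic cells. The 14 epithelial markers together ran from 106 FPKM in Jersey D90 to 5956 FPKM in Kashmiri D15.

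Together, the 7 receptors summed to 540 FPKM in Kashmiri D15, 1048 in Kashmiri D90 and 506 in Kashmiri D250. CXCR4 alone held 355, 925 and 332 FPKM of these Kashmiri sums, which thus mainly show that gene. In Jersey cattle the sum was 890 FPKM on D15, 3219 on D90 and 6881 on D250. Of the 7 genes, 5 (CSF3R, CSF2RA, C5AR1, PTAFR and GPR84) had every Jersey value above every Kashmiri value, as had 15.2% of the 12342 genes with at least 1 FPKM in any group. CXCR4 and CSF2RB did not separate the breeds in this way. In Jersey cattle 6 of 7 receptors, all but CXCR4, were higher on each later day, against 4 of 7 in Kashmiri cattle (CSF2RA, C5AR1, PTAFR and GPR84). Of all genes with at least 1 FPKM in the breed, 31.4% in Jersey and 17.9% in Kashmiri cattle were higher on each later day.

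**Figure D1:**
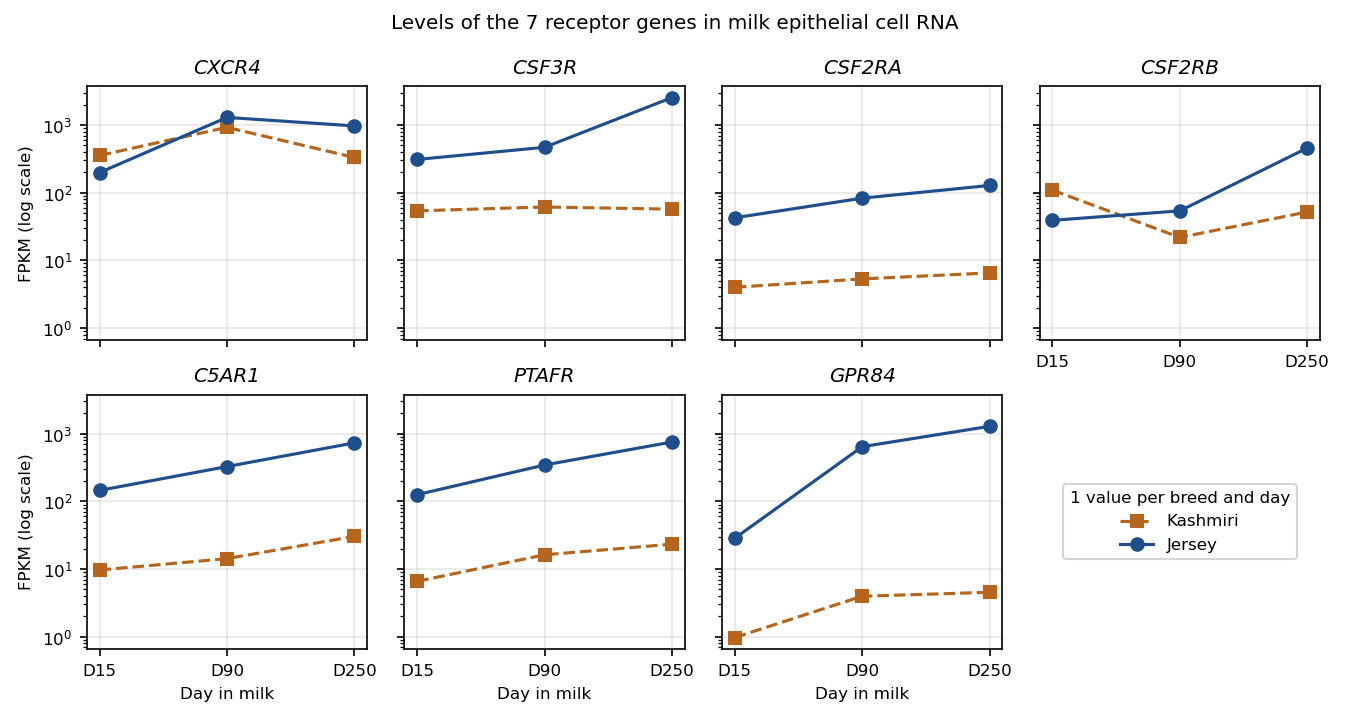
FPKM (log axis) of each of the 7 receptor genes on D15, D90 and D250, with squares for Kashmiri and circles for Jersey cattle and 1 value per breed and day. The Jersey line lies above the Kashmiri line on every day for CSF3R, CSF2RA, C5AR1, PTAFR and GPR84, while the lines of CXCR4 and CSF2RB cross.

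CXCR4, which retains neutrophils in the bone marrow and is also carried by lymphocytes, was the most abundant of the receptors in 4 of 6 groups. It measured 355 FPKM on D15, 925 on D90 and 332 on D250 in Kashmiri cattle. In Jersey cattle it measured 199 FPKM on D15, 1297 on D90 and 971 on D250. Both breeds were highest on D90, and the groups of the breeds overlapped. From D15 to D90 CXCR4 was 2.60-fold higher in Kashmiri and 6.53-fold higher in Jersey cattle. From D90 to D250 it was 2.79-fold lower in Kashmiri and 1.33-fold lower in Jersey cattle. Its span from the lowest to the highest group, 6.53-fold, was the smallest of the 7. T and NK cell markers were also highest on D90 in Kashmiri cattle, with a sum over 10 genes of 428, 1663 and 371 FPKM by day. In Jersey cattle the same sum was 277, 173 and 95.3 FPKM, and CXCR4 was nevertheless highest on D90 there. What lymphocytes contributed to the CXCR4 values was not tested.

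The ligand of CXCR4, CXCL12, took a different course. It was at 48.7, 2.92 and 1.39 FPKM in Kashmiri cattle and at 0.859, 0.0202 and 2.77 FPKM in Jersey cattle. In Kashmiri cattle its log2 ratio of D90 over D15 was −3.66, while that of CXCR4 was 1.38.

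CSF3R, the receptor through which G-CSF drives neutrophil production, was at 53.9 FPKM on D15, 61.6 on D90 and 57.2 on D250 in Kashmiri cattle. These 3 values lay within a factor of 1.14. In Jersey cattle it was at 310.4 FPKM on D15, 469 on D90 and 2549 on D250, where it was the most abundant of the 7 receptors and ranked 38 among 10596 named genes with at least 1 FPKM. Jersey cattle were 5.76-fold higher on D15, 7.62-fold on D90 and 44.6-fold on D250. The entry carries a further Ensembl identifier beside CSF3R, and the transcripts under it cannot be separated. CSF3, the G-CSF gene itself, was low in all groups, with 2.13, 0.407 and 0.423 FPKM in Kashmiri and 1.01, 5.01 and 13.0 FPKM in Jersey cattle.

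CSF2RA is the chain that binds GM-CSF specifically. It was at 4.0, 5.32 and 6.53 FPKM in Kashmiri cattle on D15, D90 and D250, and at 42.6, 83.1 and 128 FPKM in Jersey cattle. It had the lowest level of the 7 in Jersey D250, and its Jersey values were 10.6-fold, 15.6-fold and 19.6-fold those of Kashmiri cattle on the 3 days.

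CSF2RB, the signalling chain that the receptors for GM-CSF, interleukin 3 and interleukin 5 share, did not follow its partner chain. In Kashmiri cattle it was at 109 FPKM on D15, 21.9 on D90 and 51.9 on D250. In Jersey cattle it was at 39.1 FPKM on D15, 53.9 on D90 and 457 on D250. The D15 order of the breeds was thus turned round, with Kashmiri cattle 2.79-fold above Jersey cattle, and on D250 Jersey cattle were 8.80-fold above Kashmiri cattle. CSF2RB was above CSF2RA in 4 of 6 groups and below it in Jersey D15 (39.1 against 42.6 FPKM) and Jersey D90 (53.9 against 83.1 FPKM). The name was carried by 2 entries, of which the higher was used. The second entry held 62.6, 20.2 and 39.8 FPKM in Kashmiri and 20.8, 15.0 and 114 FPKM in Jersey cattle, with the same Kashmiri minimum on D90 and the same overall maximum in Jersey D250, but with a lower Jersey value on D90 than on D15. The ligand CSF2 stayed between 0.136 and 1.55 FPKM, IL5 was listed at 0 in all groups but Jersey D90 (0.0418 FPKM), and IL3 was not found.

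C5AR1, the receptor for the complement fragment C5a, was at 9.69, 14.3 and 30.4 FPKM in Kashmiri cattle on D15, D90 and D250. In Jersey cattle it was at 145, 327 and 733 FPKM. The breeds did not overlap, and each Jersey value was between 15.0-fold and 24.1-fold that of Kashmiri cattle on the same day. The precursor of its ligand, C5, a plasma protein made mainly in liver, was listed at 0 in 5 groups and at 0.00312 FPKM in Kashmiri D90.

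PTAFR, the receptor for platelet-activating factor (PAF), a phospholipid that primes neutrophils, ran close to C5AR1. It was at 6.59, 16.3 and 23.3 FPKM in Kashmiri and at 126, 345 and 755 FPKM in Jersey cattle. Jersey cattle were 19.1-fold higher on D15, 21.3-fold on D90 and 32.4-fold on D250. Of the 7 genes that make or degrade PAF, all were found. Past the limit, 2 of 6 tested (D15), 0 of 7 (D90) and 1 of 7 (D250) were higher in Jersey cattle, with none lower. The shares over all genes were 6.45%, 6.58% and 10.9%. PAFAH1B3, a subunit of an enzyme that degrades PAF, was the most abundant, with 183, 51.7 and 69.0 FPKM in Kashmiri and 115, 53.3 and 35.2 FPKM in Jersey cattle. PAFAH2, another such enzyme, was between 10.8 and 17.5 FPKM in Kashmiri and between 37.8 and 51.8 FPKM in Jersey cattle. PLA2G7, the secreted form, was at 1.22, 31.2 and 22.7 FPKM in Kashmiri and at 10.7, 38.5 and 11.4 FPKM in Jersey cattle.

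GPR84, a receptor for medium-chain fatty acids that is induced in activated myeloid cells, had the widest span of the 7. It was the lowest of them in all 3 Kashmiri groups, with 0.974 FPKM on D15, 3.97 on D90 and 4.54 on D250. In Jersey cattle it was at 28.6 FPKM on D15, again the lowest of the 7, at 644 FPKM on D90 and at 1287 FPKM on D250, where only CSF3R was above it. From D15 to D90 the Jersey value was 22.5-fold higher, and from D15 to D250 45.1-fold. The Jersey value was 29.3-fold that of Kashmiri cattle on D15, 162-fold on D90 and 284-fold on D250. Between its lowest and highest group lay a factor of 1322, against 115 for PTAFR and 75.7 for C5AR1. This factor and the 29.3-fold breed ratio on D15 rest on the Kashmiri D15 value of 0.974 FPKM, which is near the floor.

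Between days, few receptors passed the limit in Kashmiri cattle. From D15 to D90, 1 of 7 was lower past the limit, CSF2RB with a log2 ratio of −2.27 (−1.95 and inside the limit when rescaled to the group sums), and none was higher, while 5.16% of all 11297 genes tested were lower past it. The median log2 ratio of the 7 was 0.52, against −0.01 over all genes tested. From D90 to D250 none of the 7 passed the limit, where 1.98% of all genes did in either direction, and the receptor median was 0.25 against 0.03. From D15 to D250 none passed it either, beside 4.05% of all genes, and the receptor median was 0.59 against −0.04. When FPKM was rescaled to the group sums, C5AR1 (2.46), PTAFR (2.57) and GPR84 (2.15) passed the limit from D15 to D250, beside 6.59% of all genes. The small negative value of CXCR4 (−0.10) then became 0.86, and the median of all genes moved to 0.77. These Kashmiri values thus depended on the scaling.

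In Jersey cattle 2 of 7 receptors were higher past the limit from D15 to D90, CXCR4 (log2 ratio 2.70) and GPR84 (4.45), beside 2.98% of all genes tested. The other 5 lay between 0.45 for CSF2RB and 1.45 for PTAFR. From D90 to D250, 2 of 7 were higher past the limit, beside 3.72% of all genes: CSF3R (2.44, but 1.96 when rescaled to the group sums) and CSF2RB (3.06). CXCR4 was the only one lower, at −0.42. From D15 to D250, 6 of 7 were higher past the limit, beside 9.17% of all genes, and CSF2RA lay below it at 1.56. The receptor median was 2.58 and that of all genes 0.07. The Jersey differences thus fell at different times: GPR84 and CXCR4 mainly before D90, CSF3R and CSF2RB mainly after it, and C5AR1, with log2 ratios of 1.16 and 1.16, by similar steps.

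**Figure D2:**
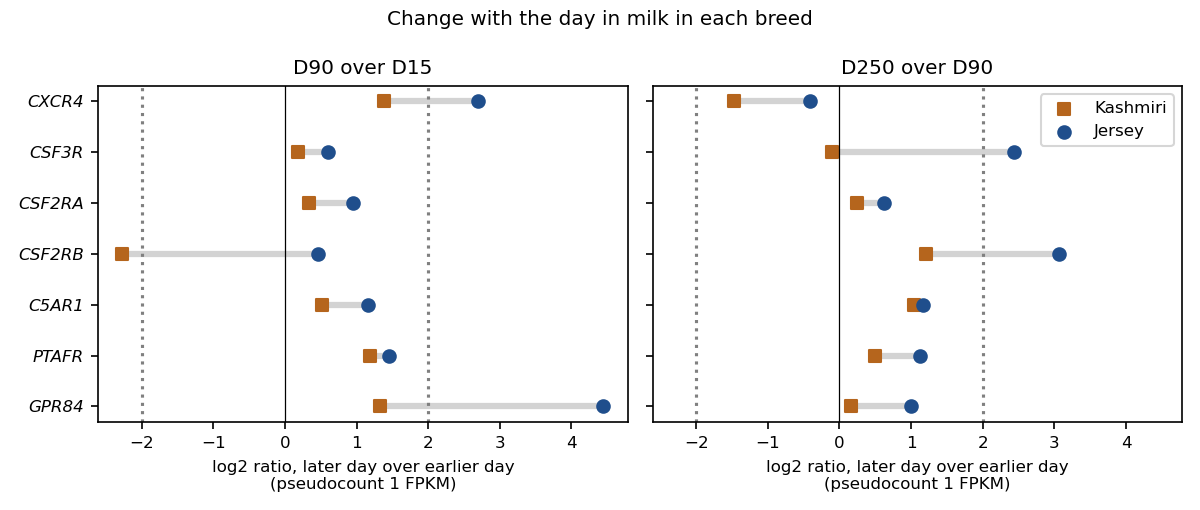
Log2 ratios of each receptor, with 1 FPKM added, for D90 over D15 (left) and D250 over D90 (right), with squares for Kashmiri and circles for Jersey cattle, 1 value each, grey bars joining the breeds and dotted lines at the limit of 2. The breeds lie farthest apart for GPR84 and CSF2RB on the left (4.45 against 1.33, and 0.45 against −2.27) and for CSF3R on the right (2.44 against −0.11).

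Between breeds, 5 of 7 receptors were higher in Jersey cattle past the limit on D15, beside 6.45% of all genes tested, and none was lower past it. CXCR4 (−0.84) and CSF2RB (−1.46) were below 0. The receptor median was 3.12 and that of all genes −0.13. On D90, 5 of 7 were higher past the limit, beside 6.58% of all genes, with CXCR4 at 0.49, CSF2RB at 1.26 and a receptor median of 3.73 against −0.03. On D250, 6 of 7 were higher past the limit, beside 10.9% of all genes, with CXCR4 at 1.55 and a receptor median of 4.55 against −0.10. With FPKM rescaled to the group sums, the share of all genes higher in Jersey cattle was 8.46% on D15, 8.68% on D90 and 6.73% on D250, and on D250 the same 6 receptors remained past the limit.

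Neutrophil markers were also higher in Jersey than in Kashmiri cattle, but did not follow the receptors from day to day throughout. S100A8 was at 36.4, 74.3 and 106 FPKM in Kashmiri and at 1652, 1276 and 3034 FPKM in Jersey cattle. Past the limit, 9 of the markers tested were higher in Jersey cattle on each day (12 tested on D15 and D250, 11 on D90) and none was lower. Of all genes, 6.45%, 6.58% and 10.9% were higher on these days. Of the 15 markers listed, 14 were found, and their sum was 209, 652 and 702 FPKM by day in Kashmiri cattle, with every Jersey sum higher, at 5039, 5875 and 12651 FPKM. From D90 to D250 in Kashmiri cattle the receptor sum was lower (1048 and 506 FPKM) where the marker sum was not. CXCR4 held most of that receptor sum (925 and 332 FPKM), and 5 of the 7 receptors were higher on D250 than on D90. In Jersey cattle MMP9, a granule protease, was lower on D250 (14.8 FPKM) than on D90 (70.1 FPKM). Among defining granule genes, MMP8 was at or near 0 in all groups, with at most 0.0349 FPKM, and LCN2 was not found. Macrophage markers, 11 of 11 found, summed to 66.6, 462 and 471 FPKM in Kashmiri and 775, 1856 and 2150 FPKM in Jersey cattle. ADGRE1 was read from an entry joined with VAV1, which held 190 and 909 FPKM in Jersey cattle on D90 and D250. From D90 to D250 in Jersey cattle 7 of 10 macrophage markers tested were lower, with a median log2 ratio of −0.84. Past the limit between the breeds, 9, 3 and 1 of 10 macrophage markers tested were higher in Jersey cattle on D15, D90 and D250. None was lower past it, and the shares over all genes were those given above. Their median log2 ratios were 3.64, 1.31 and 0.07, and on D250 5 markers were above 0 and 5 below. B cell markers summed to between 8.90 and 80.0 FPKM, eosinophil and mast cell markers to between 8.76 and 34.8, markers of neutrophil precursors to between 0.818 and 24.4 and red blood cell markers to at most 0.976 FPKM. The 14 epithelial markers were lowest on D90 in both breeds, with 740 FPKM in Kashmiri and 106 FPKM in Jersey cattle. In such mixed RNA, fewer cells of a type and less RNA per cell cannot be told apart, and the part of cell composition in the receptor values was not tested.

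**Figure D3:**
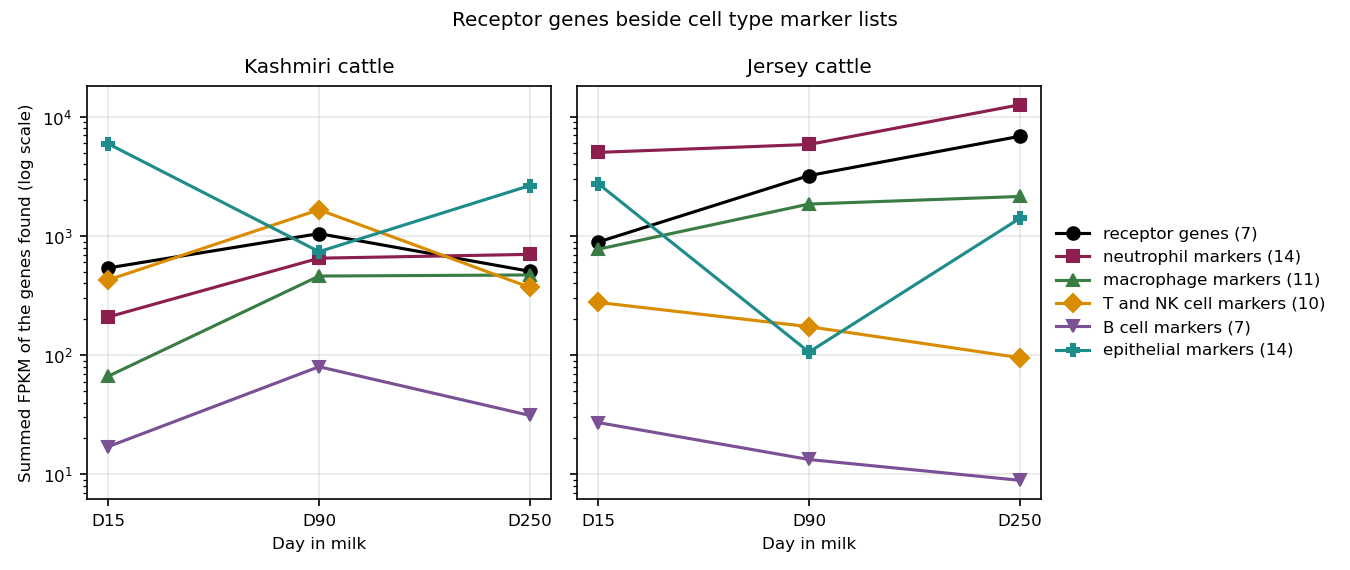
Summed FPKM (log axis) of the 7 receptors and of the marker genes found for epithelium, B cells, T and NK cells, macrophages and neutrophils, by day, in Kashmiri (left) and Jersey (right) cattle, 1 value per group. In Jersey cattle the receptors (890, 3219 and 6881 FPKM) and neutrophil markers (5039, 5875 and 12651 FPKM) are higher on each later day, while T and NK cell markers are lower (277, 173 and 95.3 FPKM).

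The receptors were set beside the median log2 ratio of the neutrophil markers, which was 3.43, 3.28 and 4.08 for Jersey over Kashmiri cattle on D15, D90 and D250. On D250 CSF2RA lay 0.02 and C5AR1 0.47 above that median, so both differed between the breeds about as much as the median marker did. PTAFR lay 0.88, CSF3R 1.38 and GPR84 3.79 above it. CSF2RB lay 0.96 and CXCR4 2.53 below it, as did both on D15, at −4.89 and −4.27. GPR84 stood 0.47 above the marker median on D15 and 3.74 on D90, so its excess over that median was found on the later days. Single markers differed widely, on D250 from 0.15 for PGLYRP1 to 6.14 for MCEMP1 among those tested. MCEMP1 took a course like that of GPR84, with 3.42, 6.39 and 6.14 against 3.90, 7.02 and 7.86 by day.

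**Figure D4:**
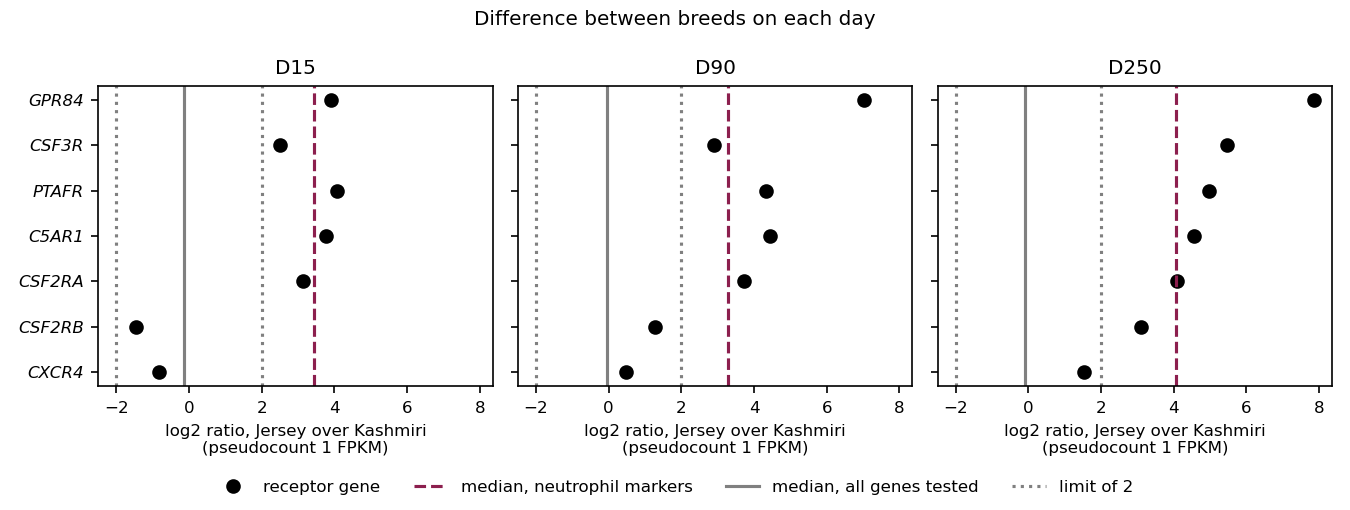
Log2 ratio of Jersey over Kashmiri cattle, with 1 FPKM added, for each receptor on D15, D90 and D250 (points, 1 value each), with lines for the median of all genes tested (grey), the median of the neutrophil markers (dashed) and the limit of 2 (dotted). GPR84 lies near the marker median on D15 (3.90 against 3.43) and far above it on D90 and D250 (7.02 and 7.86), while CXCR4 lies below it on all 3 days.

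Likeness of the receptors across the 6 groups was described by Pearson's r of log2(FPKM + 1). All groups share 1 scaling and 2 breeds, and the 6 points are no independent replicates. C5AR1 and PTAFR were closest, with r = 0.996. Among CSF3R, CSF2RA, C5AR1, PTAFR and GPR84, r ran from 0.945 to 0.996. For CXCR4 against the other receptors it ran from 0.202 to 0.578, and for CSF2RB from 0.202 to 0.668. The genes nearest to the median profile of the receptors, out of 6167 with at least 10 FPKM in 1 group, were an entry joining C5AR2 and DHX34, TRIB1, PLAUR, FAS and TLR2, with root mean square differences of 0.177 to 0.243 on the log2 scale, where the median gene was at 2.07. PLAUR, the urokinase receptor, was at 79.1, 118 and 108 FPKM in Kashmiri and 699, 1237 and 4002 FPKM in Jersey cattle. C5AR2, the second receptor for C5a, lies next to C5AR1 in the RefSeq gene order of a Bos indicus assembly, and its joined entry was at 4.32, 5.80 and 9.60 FPKM in Kashmiri and 42.0, 99.2 and 210.4 FPKM in Jersey cattle.

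Gene neighbours of other receptors, in the same gene order, differed in how far they ran with them. NCF4, an NADPH oxidase subunit that lies next to CSF2RB, was at 15.2, 13.6 and 20.7 FPKM in Kashmiri and 44.3, 141 and 452 FPKM in Jersey cattle, without the high Kashmiri D15 value of CSF2RB. COPZ1, next to GPR84, was between 45.1 and 104 FPKM in all 6 groups, and DNAJC8, next to PTAFR, between 54.1 and 89.9 FPKM. On the other side of GPR84, ZNF385A had log2 ratios of Jersey over Kashmiri cattle of 2.30, 2.90 and 1.98 on D15, D90 and D250. EYA3, on the other side of PTAFR, had ratios of 0.70, 1.71 and 2.08, and CRLF2, next to CSF2RA, of 3.52, 2.77 and 2.26.

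Of the ligands, 7 of 14 were found. PPBP, a CXCR2 ligand, was at 0.0551, 0.842 and 1.39 FPKM in Kashmiri and 1.02, 12.5 and 5.98 FPKM in Jersey cattle. ANXA1, a ligand of the formyl peptide receptors, was the most abundant, at 57.1, 215 and 231 FPKM in Kashmiri and 638, 658 and 795 FPKM in Jersey cattle. CXCL1, CXCL2, CXCL3, CXCL5, CXCL6 and CXCL8 were not found.

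Other leukocyte receptors gave a mixed picture, with 16 of 20 found. In Jersey over Kashmiri cattle, 5, 5 and 6 of them were higher past the limit on D15, D90 and D250, and 0, 3 and 0 lower, where 6.45%, 6.58% and 10.9% of all genes were higher. CCRL2, which binds the attractant chemerin, was the most abundant and came near to GPR84 in Jersey cattle, with 47.4, 600.1 and 902 FPKM against 3.82, 15.0 and 9.79 FPKM in Kashmiri cattle. CSF1R, the macrophage growth factor receptor, was at 3.90, 18.9 and 31.5 FPKM in Kashmiri and 68.5, 130.2 and 106 FPKM in Jersey cattle.

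Of the 26 genes on the G protein arm, all found, 9, 7 and 12 were higher in Jersey cattle past the limit on D15, D90 and D250, and none was lower. The shares over all genes were again 6.45%, 6.58% and 10.9%. RGS2, which shortens G protein signals, was at 43.4, 58.7 and 54.9 FPKM in Kashmiri and 341, 528 and 1120.5 FPKM in Jersey cattle. GNB2, a G protein beta subunit expressed in most cells, was between 167 and 199 FPKM in Kashmiri and between 388 and 476 FPKM in Jersey cattle.

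Of the 17 genes on the growth factor receptor arm, 15 were found, and 2, 6 and 6 were higher in Jersey cattle past the limit on D15, D90 and D250, beside these same shares. In Kashmiri cattle 0 of 15 passed it between any 2 days, where between 1.98% and 7.50% of all genes did in either direction. In Jersey cattle 7 of 15 were higher from D15 to D250, beside 9.17% of all genes. GRB2, an adaptor protein, was at 72.6, 98.4 and 70.1 FPKM in Kashmiri and 222, 561 and 909 FPKM in Jersey cattle. PIM1, a kinase induced by STAT factors, was at 62.2, 67.4 and 64.4 FPKM in Kashmiri and 83.5, 353 and 965 FPKM in Jersey cattle. SOCS3, the inhibitor that acts on CSF3R, was at 12.2, 16.7 and 9.79 FPKM in Kashmiri cattle. In Jersey cattle SOCS3 was at 126, 110.1 and 874 FPKM, with its largest step between D90 and D250, as for CSF3R. STAT3, chosen after its values were seen because CSF3R signals through it, was at 42.0, 33.8 and 40.6 FPKM in Kashmiri and 47.2, 68.8 and 300.1 FPKM in Jersey cattle.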

How the data were processed

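RNA of milk epithelial cells was sequenced from TruSeq stranded mRNA libraries. Per the study's methods and labels, the authors trimmed the reads, aligned them to UMD3.1 with Bowtie2 and TopHat, and deposited Cuffdiff FPKM, 1 value per breed and day, whose columns name Kashmiri cattle as local. Whether counting used strand is not given in the sources used here. The members and lists were chosen with earlier results of these data known. A joined name was looked up by its parts, and of entries sharing a name the highest by mean FPKM was kept. Named were every member and ligand, the purity genes, the 3 genes of each other list with the highest mean FPKM and the 5 nearest profiles, except 1 gene of a list that is not reported here. Marker genes, neighbours and STAT3 beyond these were chosen after their values were seen. Alternatives were a pseudocount of 0.1, a minimum of 0.01 FPKM, a limit of 1, the sum of entries sharing a name, and FPKM rescaled by the upper quartile or to the group sum, milk protein genes left out. Counting was tested on simulated data. RefSeq gene order came from the assembly NIAB-ARS_B.indTharparkar_mat_pri_1.0. Tables were handled with pandas 2.3.3 and numpy 2.4.6 in Python 3.11.15, and plots drawn with matplotlib 3.10.9.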

Additional observations from a re-analysis of the deposited data

Results flagged for a closer look

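The change with the day in milk went in opposite directions in the breeds for 3 receptors, and these differences were not tested because each group has 1 value. CSF2RB was lower on D90 than on D15 in Kashmiri (log2 ratio −2.27) and higher in Jersey cattle (0.45), a difference of Jersey minus Kashmiri of 2.72. The Jersey ratio was 0.20 with both CSF2RB entries summed, and the second entry alone was lower on D90 (15.0 FPKM) than on D15 (20.8 FPKM), so the opposite direction over these days rests on the entry used. Over D15 to D250 CSF2RB had ratios of −1.06 and 3.51, a difference of 4.57. CSF3R from D90 to D250 had ratios of −0.11 and 2.44, a difference of 2.54. CXCR4 from D15 to D250 had ratios of −0.10 and 2.28, a difference of 2.38. The Kashmiri values of CSF3R and CXCR4 turned positive when FPKM was rescaled to the group sums, at 0.53 and 0.86.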

How the results depend on the processing

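No paired analysis was possible because the table holds 1 value per breed and day, and for the same reason no replicate could be left out in turn. Of 99 counts and medians recomputed under 6 alternatives 88 kept within the set bounds and 11 did not, and no value called past the limit turned its direction. With FPKM rescaled to the sum, the receptors past the limit numbered 0 (Kashmiri D90 over D15), 3 (Kashmiri D250 over D15) and 1 (Jersey D250 over D90). Of all genes, 7.14%, 7.19% and 3.07% passed it in either direction in these comparisons. The receptor medians under this scaling were 1.40 (Kashmiri D250 over D15) and 3.78 (Jersey over Kashmiri at D250). With a pseudocount of 0.1, 1 receptor, GPR84, passed the limit from D15 to D250 in Kashmiri cattle, beside 9.14% of all genes in either direction. With a limit of 1, the receptors past it numbered 4 (Kashmiri D90 over D15), 3 (Kashmiri D250 over D90), 4 (Kashmiri D250 over D15), 4 (Jersey D90 over D15) and 4 (Jersey D250 over D90). In the same order, 33.5%, 17.7%, 25.7%, 29.8% and 20.9% of all genes passed this limit in either direction. Rescaling to the sum moved the median of all genes from −0.10 to −0.75 for Jersey over Kashmiri at D250 and from 0.03 to 0.59 for Kashmiri D250 over D90. It changed the higher and lower calls over all genes from 264 and 583 to 409 and 381 (Kashmiri D90 over D15), 98 and 128 to 419 and 41 (Kashmiri D250 over D90), 212 and 253 to 784 and 71 (Kashmiri D250 over D15), 330 and 419 to 432 and 351 (Jersey D90 over D15), 407 and 51 to 230 and 108 (Jersey D250 over D90), 1038 and 387 to 803 and 547 (Jersey D250 over D15), 723 and 237 to 928 and 124 (between breeds at D15), 738 and 579 to 980 and 431 (at D90) and 1272 and 159 to 812 and 633 (at D250). Milk protein genes were left out of these sums, since every group but Jersey D90 lists 4 of the 5 found at 0, all but CSN3 on D15 and all but LALBA otherwise. The study lists reads for each library under names not matched here to breed and day, so the depth behind each value is unknown.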
